A study of Rattus norvegicus with 3 samples.

Results

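The 10 genes described here encode the core of the TGF-beta and activin system as it acts between cells: the ligands Tgfb1, Tgfb2 and Tgfb3, the receptors and co-receptors Tgfbr1, Tgfbr2, Tgfbr3 and Eng, the activin A subunit Inhba, and the secreted antagonists Fst and Grem1. They were chosen by name for their place in 1 pathway, with earlier results of these data known, among 13301 rat genes with a named probe. Of 16745 named probes, 14 measured them. Gene expression was measured in 3 rat cell populations, with 1 one-colour whole rat genome array for each. All cells came from rats of the F344 strain. MSC stands for mesenchymal stem cells, freshly isolated from bone marrow of the femur by adherence to plastic and not sorted for surface markers. COS1NR is an osteosarcoma cell line and MFH1NR a malignant fibrous histiocytoma cell line, both derived from tumors induced with 4-HAQO, a chemical carcinogen, and both described in the methods as bearing a p53 mutation. Each sarcoma is represented by 1 line, and the MSC culture received more serum than the lines did. With 1 array per cell type no difference could be tested, and no spread between cultures is known.

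TGF-beta is secreted in a latent form that is held in the extracellular matrix and has to be released before it can act. The active ligand binds the kinase receptor Tgfbr2, which recruits and phosphorylates Tgfbr1, and Tgfbr1 in turn phosphorylates the Smad proteins that carry the signal into the nucleus. Activin A, a dimer of 2 Inhba chains, signals through related receptors to the same Smads, and mesenchymal cells are known to make matrix and contractile proteins in response.

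The probe intensity deposited for each spot had its background subtracted by the scanner software. Every comparison used the intensity divided by the 75th percentile of its own array, and a log2 ratio is the difference of 2 such log2 values. The 75th percentile was 589.1 in MSC, 773.7 in COS1NR and 994.3 in MFH1NR. Between 56.6% and 59.7% of the spots were well above background by the software's call, and no spot was saturated. A probe without that call is named dim here and gives only a bound on a ratio. COS1NR and MFH1NR were hybridized on a common slide and MSC on a different one. In the ratios to MSC an effect of the slide and one of the cell type therefore cannot be told apart, and the comparisons of COS1NR and of MFH1NR with MSC share the single MSC array. The yardsticks were those within an array. Probes printed 10 times had a median SD between 0.0469 and 0.0575 in log2 intensity. Where a gene had more than 1 probe, the log2 ratios of its first pair differed by 0.28 for COS1NR to MSC, 0.32 for MFH1NR to MSC and 0.15 for MFH1NR to COS1NR (medians over genes). For 1 gene in 10 these differences exceeded 0.93, 1.01 and 0.59.

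The labels were set beside cell type markers. All 12 markers of MSC and fibroblasts were well above background in MSC and 10 of 12 in each sarcoma line, with Thy1 dim in COS1NR and Dcn in MFH1NR. Against MSC, 9 of 12 were at least 2-fold lower in COS1NR (median log2 ratio -3.47) and 7 of 12 in MFH1NR (median -1.59). The number at least 2-fold higher was 0 in both lines. Of all genes, 20.0% were lower in COS1NR and 21.6% in MFH1NR. The summed intensity of these 12 was 708 times the 75th percentile in MSC, 163 times in COS1NR and 279 times in MFH1NR. All 15 macrophage markers were well above background in MSC, against 7 in COS1NR and 6 in MFH1NR. Their summed intensity was 182 times the 75th percentile in MSC, 9.62 times in COS1NR and 4.75 times in MFH1NR, and in both lines Ptprc, Lyz2, Adgre1 and Itgam were dim. Others of the list were well above background in both lines, such as Cd14 (3387 in COS1NR and 3095 in MFH1NR) and Cd68 (3135 and 955.8). The part of macrophages in the ratios to MSC was not tested. Of 8 endothelial markers with a probe, 3 were well above background in MSC, 3 in COS1NR and 1 in MFH1NR, and Pecam1, Tek, Emcn and Erg were dim on every array. Of 8 osteoblast markers with a probe, 6 were well above background in MSC, 5 in COS1NR, the line labelled as osteosarcoma, and 6 in MFH1NR. Between the lines 3 of them (Sp7, Alpl and Spp1) were at least 2-fold higher in MFH1NR, with Sp7 dim in COS1NR, and 1 (Ibsp) was 12.2-fold lower. Whether COS1NR and MFH1NR hold the cells their labels name was not tested, and both names are used here as the labels give them. In such bulk RNA, fewer cells of a type and less RNA per cell cannot be told apart.

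The promoters of 3 members are shown because these genes, Inhba, Grem1 and Eng, differed most from MSC in at least 1 line. Each run is the 250 bases before the gene's start in RefSeq on the GRCr8 build, read 5′ to 3′ on the strand of the gene. Capitals mark exact matches on either strand to any of 6 letter strings: the Smad element CAGAC, the AP-1 element TGANTCA, the CRE element TGACGTCA, the GC box GGGCGG, the TATA box TATAAA and the CCAAT box. On the opposite strand they read as their reverse complements, such as GTCTG for the Smad element. No string is contained in another, although adjoining matches can run together.
Inhba, chr17:53804509-53804758, minus strand: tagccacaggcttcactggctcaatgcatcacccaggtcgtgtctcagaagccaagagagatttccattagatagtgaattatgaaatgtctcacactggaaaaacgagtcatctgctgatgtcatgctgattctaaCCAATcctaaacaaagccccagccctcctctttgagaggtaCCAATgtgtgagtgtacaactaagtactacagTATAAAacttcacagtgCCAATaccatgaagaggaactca
Grem1, chr3:120978320-120978569, minus strand: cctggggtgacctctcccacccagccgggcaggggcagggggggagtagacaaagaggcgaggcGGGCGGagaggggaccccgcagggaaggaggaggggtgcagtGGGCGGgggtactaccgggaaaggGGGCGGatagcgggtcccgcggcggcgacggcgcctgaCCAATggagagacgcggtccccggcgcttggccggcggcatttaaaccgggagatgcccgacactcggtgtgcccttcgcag
Eng, chr3:36332029-36332278, plus strand: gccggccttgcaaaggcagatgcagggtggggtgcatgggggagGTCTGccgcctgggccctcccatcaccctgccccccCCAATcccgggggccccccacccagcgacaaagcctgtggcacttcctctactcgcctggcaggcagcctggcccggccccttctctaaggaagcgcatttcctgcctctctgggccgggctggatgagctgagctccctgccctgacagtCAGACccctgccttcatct
The 3 runs were unlike each other in composition. G and C made up 43.6% of the bases before Inhba, 72% before Grem1 and 68% before Eng, with a median of 52% over 27457 rat promoters. The TATAAA string stood 40 to 35 bases before the start of Inhba and in the window of no other member among the 9 with an entry, and it was found in 13.1% of all promoters. Grem1 held GGGCGG at 3 places, 186 to 181, 144 to 139 and 120 to 115 bases before its start. GGGCGG was also present before Tgfbr1, Tgfbr2 and Tgfbr3 and in 32.4% of all promoters. Eng was the member with CAGAC, at 206 to 202 and at 19 to 15 bases before its start, a string present in 42.8% of promoters. CCAAT was found in 5 of the 9 members and in 34.3% of promoters. TGANTCA and TGACGTCA, found in 6.36% and 1.7% of promoters, were in none of the 9 windows. These matches describe the letters only. Fst had no entry in the promoter table.

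Compared with MSC, 6 of the 10 members were at least 2-fold lower in COS1NR (Tgfb1, Tgfb2, Tgfb3, Eng, Inhba and Grem1) and 1 was at least 2-fold higher (Fst). Among all 9709 genes compared, 20.0% were lower and 20.7% higher by this threshold. The median log2 ratio was -2.24 over the members and 0.10 over all genes. In MFH1NR compared with MSC, 6 members were at least 2-fold lower (Tgfb2, Tgfb3, Tgfbr3, Eng, Inhba and Grem1) and Fst was at least 2-fold higher. Among all 9822 genes compared, 21.6% were lower and 19.4% higher, and the median log2 ratio was -1.64 over the members and 0.02 over all genes. Between the lines, 9 members could be compared, since Eng was dim in both. In MFH1NR compared with COS1NR, Tgfb1, Inhba and Grem1 were at least 2-fold higher and Tgfb3, Tgfbr3 and Fst at least 2-fold lower. Among 9422 genes 12.4% were higher and 15.1% lower, and the median log2 ratio was 0.62 over the members and -0.08 over all genes. The 10 genes were picked for their place in 1 pathway, with results of these data known, so these counts describe the genes and set nothing apart from the rest of the array.

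**Figure D1:**
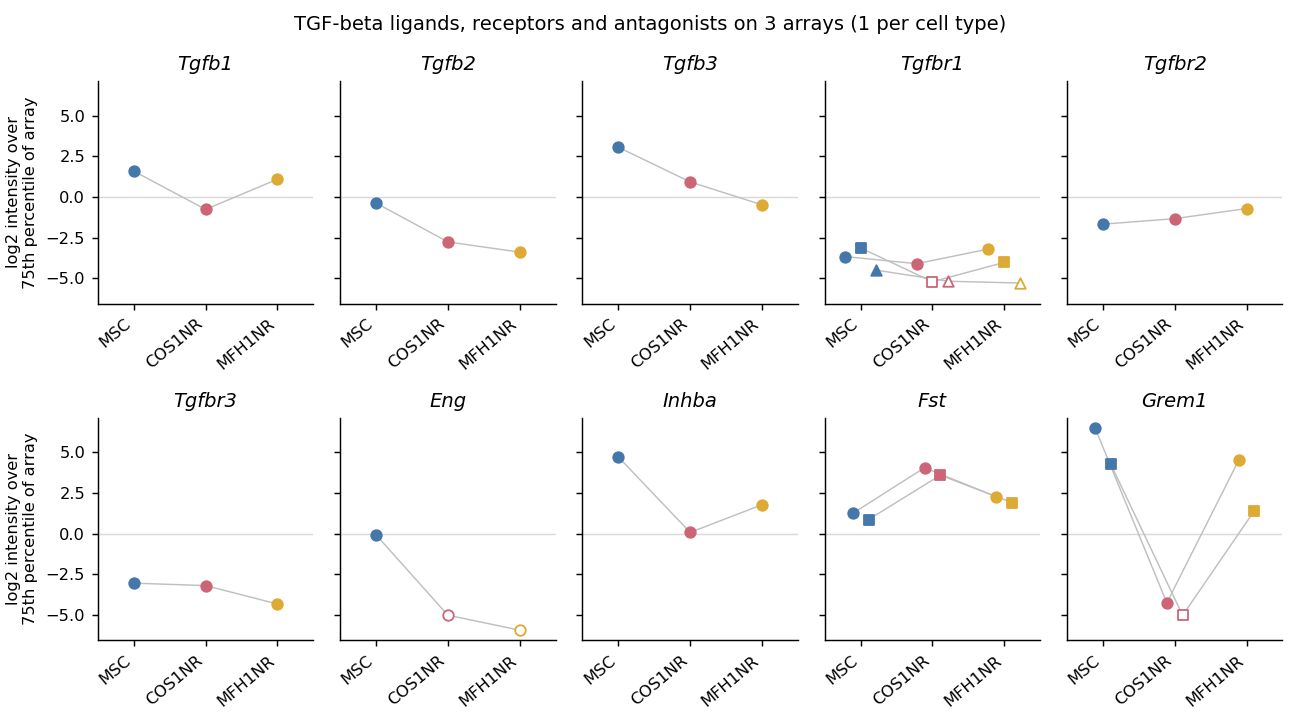
Log2 intensity over the 75th percentile of the array (vertical axis) for each member gene in MSC, COS1NR and MFH1NR (horizontal axis, 1 array each). Circles, squares and triangles are the probes of a gene in order of intensity, grey lines join the same probe, and open symbols are dim. Both Grem1 probes dropped to the bottom of the scale in COS1NR, where Fst was at its highest, and Eng was filled in MSC alone. Heights should not be compared between genes or probes.

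Of the ligands, Tgfb1 is the most widely expressed isoform and was the best measured member, with 1 probe printed 10 times on each array. Its intensity was 1773 in MSC, 456.7 in COS1NR and 2112 in MFH1NR, or 1.59, -0.76 and 1.09 in log2 over the 75th percentile. The 10 spots ranged from 1668 to 1869 in MSC, from 425.8 to 484.3 in COS1NR and from 2028 to 2181 in MFH1NR, with an SD of 0.0426, 0.0525 and 0.0347 in log2. COS1NR was the low array, and on the scaled values the spots of the 3 arrays did not overlap. That separation concerns spots of 1 labelled RNA per array and not cultures. Tgfb1 was 5.1-fold lower in COS1NR than in MSC (log2 ratio -2.35) and 3.6-fold higher in MFH1NR than in COS1NR (log2 ratio 1.85). MFH1NR and MSC were 1.42-fold apart (log2 ratio -0.50). That last difference exceeded the usual difference between probes but turned to 0.25 without scaling, so its direction rests on the scaling.

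**Figure D2:**
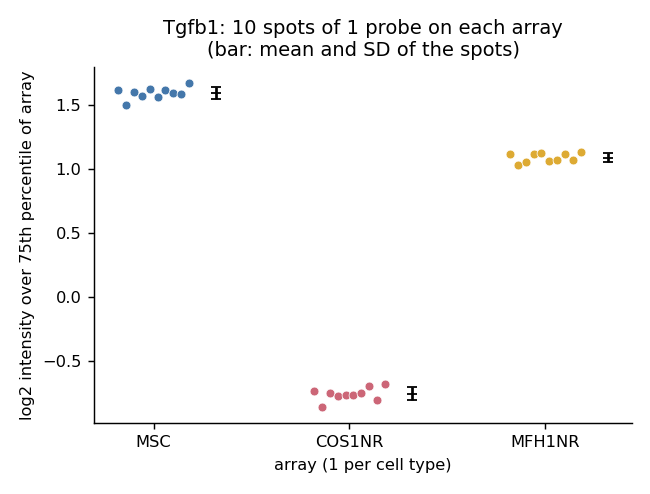
Log2 intensity over the 75th percentile of the array (vertical axis) for each of the 10 spots of the Tgfb1 probe on the MSC, COS1NR and MFH1NR arrays (horizontal axis). Bars give the mean and SD of the spots, which vary within an array by 0.0347 to 0.0525, while COS1NR lies 2.35 below MSC.

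Tgfb2 and Tgfb3, isoforms with separate roles in development, followed another order. The Tgfb2 intensity was 457.3 in MSC, 114.2 in COS1NR and 94.66 in MFH1NR (-0.37, -2.76 and -3.39 in log2 over the 75th percentile). It was 5.26-fold lower in COS1NR and 8.15-fold lower in MFH1NR than in MSC (log2 ratios -2.40 and -3.03). MSC stood above both lines, and between the lines the log2 ratio of -0.63 became 0.16 under scaling by spike-in probes, so their order is not settled. The Tgfb3 intensity was 4915 in MSC, 1472 in COS1NR and 714 in MFH1NR (3.06, 0.93 and -0.48 in log2 over the 75th percentile). Tgfb3 was 4.39-fold lower in COS1NR and 11.6-fold lower in MFH1NR than in MSC (log2 ratios -2.13 and -3.54), and 2.65-fold lower in MFH1NR than in COS1NR (log2 ratio -1.41). The last of these was -0.61 under spike-in scaling, the same direction but under 2-fold. Against MSC, the log2 ratios of the ligands lay close together in COS1NR, from -2.40 to -2.13, and further apart in MFH1NR, from -3.54 to the -0.50 of Tgfb1, whose direction is not settled.

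Of the kinase receptors, Tgfbr2 gave ratios of under 2-fold in every comparison at the 75th percentile scaling. Tgfbr2, the receptor that binds ligand first, had an intensity of 184.9 in MSC, 308.1 in COS1NR and 607.1 in MFH1NR (-1.67, -1.33 and -0.71 in log2 over the 75th percentile). The ratio to MSC was 1.27-fold in COS1NR and 1.94-fold in MFH1NR (log2 0.34 and 0.96), and between the lines it was 1.53-fold (log2 0.62). Under spike-in scaling the log2 ratio between the lines was 1.41, past 2-fold. The order from MSC to MFH1NR held under every scaling tried, but COS1NR exceeded MSC by little more than the median difference between probes and by 0.07 under spike-in scaling. The ratio of MFH1NR to MSC lay so near 2-fold that it passed it under the 4 other scalings, with log2 values of 1.02 to 1.71, and was 0.80 under normexp.

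Tgfbr1, the receptor that phosphorylates the Smads, was weak on all 3 of its probes, and they did not give the same picture. The first had an intensity of 46.7 in MSC, 45.24 in COS1NR and 108.5 in MFH1NR, with log2 ratios of -0.44 for COS1NR and 0.46 for MFH1NR against MSC. The second had 67.12 in MSC, a dim 20.83 in COS1NR and 61.34 in MFH1NR, which made COS1NR at least 3-fold lower than MSC and gave MFH1NR a log2 ratio of -0.89. The third, at 25.99 in MSC, was dim in both lines, which placed COS1NR at least 1.16-fold and MFH1NR at least 1.46-fold below MSC. COS1NR was lower than MSC by each of them, the third within the difference between probes. MFH1NR was higher than MSC by the first probe and lower by the other probes, and the mean of all probes gave a log2 ratio of -0.40.

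The co-receptors present ligand to the kinase receptors. Tgfbr3, also known as betaglycan and needed for efficient binding of Tgfb2, had an intensity of 71.54 in MSC, 84.89 in COS1NR and 49.66 in MFH1NR (-3.04, -3.19 and -4.32 in log2 over the 75th percentile). COS1NR differed from MSC by a log2 ratio of -0.15, less than the median difference between probes, and by 0.25 without scaling. MFH1NR was 2.43-fold lower than MSC and 2.2-fold lower than COS1NR (log2 ratios -1.28 and -1.14), the low array of the set. These differences shrank to -0.53 without scaling and to -0.34 under spike-in scaling.

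Eng, or endoglin, is a co-receptor of endothelial cells that is also used as a surface marker of MSC, and it was among the clearest differences. The intensity was 560.7 in MSC, and dim in both lines, at 23.96 in COS1NR and 16.32 in MFH1NR. Against MSC, Eng was therefore lower by at least 25.1-fold in COS1NR and by at least 31.5-fold in MFH1NR, and no ratio between the lines can be given. With the normexp background correction the ratios were smaller, -3.04 and -3.43 in log2. Endoglin is also found on endothelial cells and on activated macrophages. The endothelial markers summed to 0.733 times the 75th percentile in MSC, 0.323 times in COS1NR and 0.145 times in MFH1NR. Pecam1, Tek, Emcn and Erg were dim in MSC, while Kdr and Tie1 were well above background there and at least 2-fold lower in both lines. Cdh5, also well above background in MSC, and Flt1, dim in MSC, were higher in COS1NR, with log2 ratios of 0.50 and at least 1.96. The macrophage markers were all well above background in MSC, as given above. The part of either cell type in the Eng ratio was not tested.

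Inhba encodes the chain whose dimer is activin A. Its intensity was 15495 in MSC, 818.9 in COS1NR and 3415 in MFH1NR (4.72, 0.08 and 1.78 in log2 over the 75th percentile). MSC was the high array and COS1NR the low one, and the 3 values were far apart. Inhba was 24.9-fold lower in COS1NR and 7.66-fold lower in MFH1NR than in MSC (log2 ratios -4.64 and -2.94), and 3.24-fold higher in MFH1NR than in COS1NR (log2 ratio 1.70). Over the alternatives the ratio of COS1NR to MSC stayed between -4.91 and -4.24 and that of MFH1NR to MSC between -2.94 and -2.18. A single probe measured Inhba, and activated macrophages also make activin A, so the macrophage markers of the MSC culture bear on this ratio too in a way that was not tested.

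Fst encodes follistatin, which binds activin and keeps it from its receptors, and it was the one member at least 2-fold higher than MSC in either line. Its first probe had an intensity of 1398 in MSC, 12941 in COS1NR and 4797 in MFH1NR, and its second probe 1078, 9384 and 3740. COS1NR was highest and MSC lowest on both probes. By the first probe Fst was 7.05-fold higher in COS1NR than in MSC (log2 ratio 2.82) and 2.03-fold higher in MFH1NR than in MSC (log2 ratio 1.02). By the second the folds were 6.63 and 2.06, within the median difference between probes. MFH1NR was 3.47-fold lower than COS1NR by the first and 3.22-fold lower by the second. The ratio of MFH1NR to MSC lay at the 2-fold limit and was 0.91 in log2 under normexp. Set beside each other, Inhba was at its lowest and Fst at its highest in COS1NR, and Inhba was at its highest and Fst at its lowest in MSC.

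Grem1 encodes gremlin, a secreted antagonist that binds BMP ligands, relatives of TGF-beta and activin. It showed the largest range of any member with all arrays well above background, 10.76 in log2. The first probe had an intensity of 53526 in MSC, 40.58 in COS1NR and 22652 in MFH1NR (6.51, -4.25 and 4.51 in log2 over the 75th percentile). The second had 11329 in MSC, a dim 23.9 in COS1NR and 2669 in MFH1NR. Both probes placed COS1NR near the limit of 29.4 below which no spot of that array was well above background, and placed MSC and MFH1NR far above it. By the first probe Grem1 was 1732-fold lower in COS1NR than in MSC (log2 ratio -10.76), a figure that rests on a COS1NR intensity near background. By the second it was at least 506-fold lower. MFH1NR was 3.99-fold lower than MSC by the first probe and 7.16-fold lower by the second (log2 ratios -2.00 and -2.84), a disagreement smaller than that of the most discordant 1 gene in 10. Against COS1NR, MFH1NR was 434-fold higher by the first probe and at least 70.7-fold higher by the second.

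Of the 7931 genes measured on every array, those whose profile lay nearest to that of Grem1 were Col1a2, Npdc1 and Ctsk. The distances between profiles centred on their means were 1.19, 1.58 and 1.61 in log2. Col1a2, a chain of type I collagen, had an intensity of 110949 in MSC, 267.7 in COS1NR and 94925 in MFH1NR by its first probe. Its second probe had 169669, 36.67 and 12125. That placed MFH1NR 23.6-fold below MSC, against 1.97-fold by the first probe, and the distance was computed from the first probe alone. Npdc1 had 19524, 38.92 and 4688, and Ctsk, a collagen-degrading protease known from osteoclasts, had 14774, 46.98 and 7209. All 3 were low in COS1NR and high on the other arrays. With 3 arrays this is a description of likeness and nothing more.

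**Figure D3:**
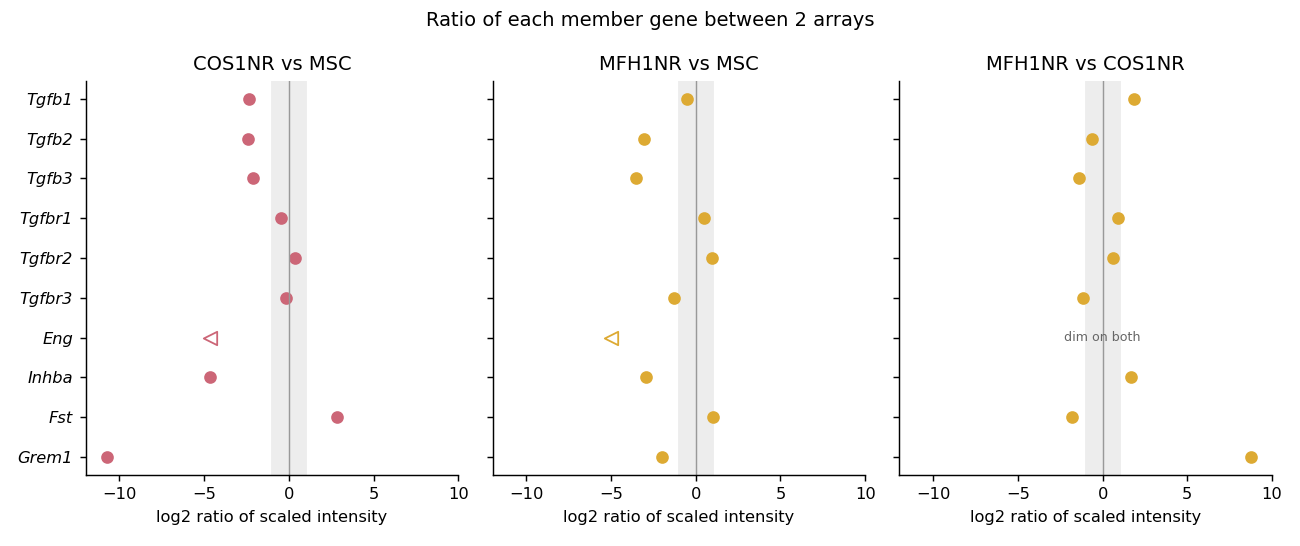
Log2 ratio of scaled intensity (horizontal axis) of each member gene, by its first probe, for COS1NR against MSC, MFH1NR against MSC and MFH1NR against COS1NR. The grey band is less than 2-fold, open triangles are bounds that point toward larger differences, and Eng was dim on both arrays of the panel on the right. Grem1 lies at -10.76 on the left and at 8.76 on the right, and against MSC Fst lies at 2.82 and 1.02.

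The other ligands and receptors of the activin branch went in both directions against MSC. Of 9 further ligands of the activin family, 5 had a named probe and 3 were above background: Inha, Inhbb and Gdf15. In COS1NR against MSC 1 was at least 2-fold higher and 1 lower, with a list median of -0.51, beside 20.7% higher, 20.0% lower and a median of 0.10 over all genes. In MFH1NR against MSC all 3 lay within 2-fold, with a median of 0.41 against 0.02, but 2 were at least 2-fold higher without scaling and 1 under spike-in scaling. Inha, the inhibin alpha chain that pairs with the Inhba chain to form inhibin A, had an intensity of 181.8 in MSC, a dim 6.123 in COS1NR and 408.2 in MFH1NR. Inha was at least 8.13-fold lower in COS1NR than in MSC and at least 10.8-fold lower than in MFH1NR. Gdf15, a stress-induced member of the superfamily, had 2885, 2661 and 3307. Its log2 ratios to MSC were -0.51 and -0.56, under 2-fold but beyond the median difference between probes. The 3 probes of Inhbb, the activin B chain, contradicted each other, with log2 ratios of COS1NR to MSC of 1.31, -2.55 and at most -1.12. For MFH1NR to MSC they gave 0.65, at most -7.47 and at most -1.45. The list counts rest on its first probe, and Inhbb is uncertain.

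Of 9 activin and related receptors, 8 could be compared with MSC. In COS1NR 2 were at least 2-fold higher and 3 lower (median -0.32), and in MFH1NR 1 was higher and 4 lower (median -0.78), beside 20.7% higher and 20.0% lower of all genes in COS1NR and 19.4% and 21.6% in MFH1NR. These counts depended on the scaling: over the 5 scalings between 0 and 2 were higher and between 2 and 4 lower in COS1NR, and between 1 and 3 higher and between 2 and 4 lower in MFH1NR. Acvrl1, the receptor ALK1 that works together with endoglin, had an intensity of 3485 in MSC and was dim at 6.368 in COS1NR and 6.396 in MFH1NR. Relative to MSC it was lower by at least 156-fold in COS1NR and 196-fold in MFH1NR, the same side as Eng. Acvr1b, the activin type I receptor, had an intensity of 96.38 in MSC, 37.48 in COS1NR and 46.9 in MFH1NR, with log2 ratios to MSC of -1.76 and -1.79. Acvr2a, an activin type II receptor, was the reverse, with 49.45, 153.1 and 132.8 by its first probe and log2 ratios of 1.24 and 0.67 (0.82 and 0.80 by its second). Receptors of the branch thus lay on either side of MSC. Between the lines, 6 of 7 receptors were within 2-fold, beside 12.4% higher and 15.1% lower of all genes. Without scaling 1 was at least 2-fold higher in MFH1NR (19.9% of all genes), and under spike-in scaling 3 were (34.9%). The exception, Bmpr1b, had 130.8 in COS1NR and a dim 11.32 in MFH1NR, which places it at least 5.59-fold lower there.

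Of 18 genes of the latent TGF-beta complex and its activation, 15 had a named probe. In COS1NR 11 of 15 were at least 2-fold lower than in MSC and 0 were higher, with a median log2 ratio of -1.76, beside 20.0% lower, 20.7% higher and a median of 0.10 over all genes, and over the 5 scalings tried the number lower was between 9 and 11. In MFH1NR 9 of 15 were lower and 1 higher, with a median of -1.69, beside 21.6%, 19.4% and 0.02, and between 7 and 9 were lower over the scalings. No test of a list was possible. Mmp14, a membrane protease that can release TGF-beta, had an intensity of 41332 in MSC, 1208 in COS1NR and 55144 in MFH1NR, and was 44.9-fold lower in COS1NR than in MSC (log2 ratio -5.49). COS1NR was the low array here, as it was for Tgfb1, Inhba and Grem1. Fbn2, a microfibril protein that anchors the latent complex, had 890 in MSC and was dim in both lines, lower by at least 39.8-fold (COS1NR) and 50-fold (MFH1NR). Dcn, a matrix proteoglycan that binds TGF-beta, had 22059 in MSC, 4845 in COS1NR and a dim 20.41 in MFH1NR, a drop of at least 1238-fold from MSC to MFH1NR. Bgn, a related proteoglycan, had 265392, 74697 and 16534, a log2 ratio of -2.22 for COS1NR and -4.76 for MFH1NR. For both proteoglycans MFH1NR was the low array. Ltbp4, which binds the latent Tgfb1 complex, went the other way, with 75.83 in MSC, a dim 28.5 in COS1NR and 1499 in MFH1NR. It was 11.7-fold higher in MFH1NR than in MSC and at least 39.7-fold higher than in COS1NR. Nrros, which holds latent Tgfb1 on macrophages and microglia, had 510.4 in MSC, 40.13 in COS1NR and a dim 21.51 in MFH1NR. It was highest in MSC, as the macrophage markers were.

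Of 19 Smads and Smad regulators, 13 could be compared with MSC. In COS1NR 7 were at least 2-fold lower and 1 higher (median -1.25), and in MFH1NR 4 were lower and 3 higher (median -0.13). Of all genes 20.0% were lower and 20.7% higher in COS1NR, and 21.6% lower and 19.4% higher in MFH1NR. Over the 5 scalings between 6 and 7 were lower and 1 or 2 higher in COS1NR, and between 3 and 4 lower and between 3 and 5 higher in MFH1NR. Smad3, which carries the TGF-beta and activin signal, had an intensity of 193.2 in MSC and was dim at 5.975 in COS1NR and 6.166 in MFH1NR. Smad3 thus lay at least 8.64-fold below MSC in COS1NR and at least 10.8-fold below it in MFH1NR. Smad2, which shares that role, had 599.3, 756 and 1670, with log2 ratios to MSC of -0.06 and 0.72, under 2-fold in both lines. Smad7, an inhibitory Smad and itself a target of the pathway, had 5932 in MSC, 2127 in COS1NR and 6942 in MFH1NR, with log2 ratios of -1.87 and -0.53. Bambi, a decoy receptor without a kinase, had 4513, 1088 and 13682, with log2 ratios of -2.45 and 0.85. Smad6, the inhibitory Smad of the BMP branch, had 581.5, 269.9 and 2340, with log2 ratios of -1.50 and 1.25. COS1NR was the lowest array for all 3 of these inhibitors, and in MFH1NR against COS1NR Smad6 was 6.75-fold, Smad7 2.54-fold and Bambi 9.78-fold higher. In that comparison 3 genes of the list were higher and 1 lower, beside 12.4% and 15.1% of all genes. Without scaling 5 were higher beside 19.9% of all genes, and under spike-in scaling 5 beside 34.9%.

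Of 20 genes known as TGF-beta targets in mesenchymal cells, 16 had a named probe. In COS1NR 13 of 16 were at least 2-fold lower than in MSC and 0 higher, with a median log2 ratio of -2.93, beside 20.0% lower, 20.7% higher and a median of 0.10 over all genes. In MFH1NR 12 of 16 were lower and 1 was higher, with a median of -3.01, beside 21.6%, 19.4% and 0.02. Over the 5 scalings the number lower was between 11 and 14 in COS1NR and between 10 and 12 in MFH1NR. Tagln, an actin-binding protein of smooth muscle, had an intensity of 78247 in MSC, a dim 6.001 in COS1NR and 136 in MFH1NR, at least 3498-fold lower in COS1NR and 971-fold lower in MFH1NR. Ccn2, or connective tissue growth factor, had 25434 in MSC, 389.6 in COS1NR and 11842 in MFH1NR, 85.7-fold lower in COS1NR and 3.63-fold lower in MFH1NR. Tgfbi, a TGF-beta-induced matrix protein, ran the other way between the lines and had 49267, 7226 and a dim 20.71 by its first probe. Pmepa1, a target that feeds back on the pathway, had 4154, 402.2 and a dim 20.12. So Ccn2 and Col1a2 were lowest in COS1NR, and Tgfbi and Pmepa1 were lowest in MFH1NR. Cdkn2b, a cyclin-dependent kinase inhibitor, was the gene higher in MFH1NR than in MSC, with 602.3 in MSC, 1013 in COS1NR and 4792 in MFH1NR (4.71-fold, log2 ratio 2.24). Between the lines 5 targets were at least 2-fold higher and 5 lower in MFH1NR, beside 12.4% higher and 15.1% lower of all genes. Col1a2 was among the higher ones, 276-fold by its first probe and 257-fold by its second. Pmepa1, Smad7 and Ltbp2 stand in 2 of these lists. The MSC array also differed from the lines in its macrophage markers, all 15 of which were at least 2-fold lower in each line, and their part in the list counts was not tested.

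**Figure D4:**
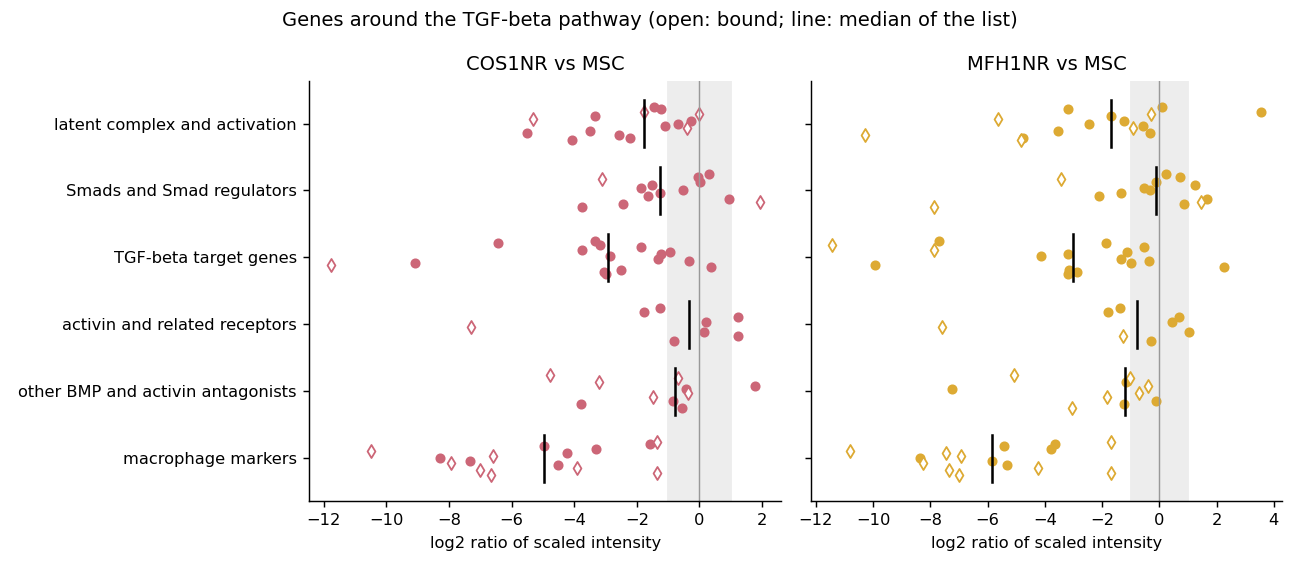
Log2 ratio of scaled intensity (horizontal axis) against the shared MSC array for genes of 5 lists around the pathway and for the macrophage markers (vertical axis), in COS1NR and in MFH1NR. Each point is 1 gene, open points are bounds, black lines are list medians and the grey band is less than 2-fold. The medians of the target genes lie at -2.93 and -3.01, and those of the macrophage markers at -4.97 and -5.86.

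The other antagonists of BMP and activin were more often at least 2-fold lower than MSC than higher. Of 13 in the list, 10 could be compared with MSC. In COS1NR 4 were at least 2-fold lower and 1 higher (median -0.76), and in MFH1NR 7 were lower and 0 higher (median -1.20), beside 20.0% lower and 20.7% higher of all genes in COS1NR and 21.6% and 19.4% in MFH1NR. The count of 7 was 5 under median scaling and 4 without scaling or under spike-in scaling. Fstl1, a secreted relative of follistatin, had 6828 in MSC, 653.7 in COS1NR and 4911 in MFH1NR, with log2 ratios to MSC of -3.78 and -1.23, opposite in direction to Fst. Nbl1 had 6717, 6533 and 74.1, and was 153-fold lower in MFH1NR than in MSC but within 2-fold of it in COS1NR. Chrdl1, a chordin-like antagonist, had 23.61, 104.8 and a dim 6.232, and was 3.38-fold higher in COS1NR than in MSC, the one antagonist of the list on the same side as Fst there.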

How the data were processed

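One-colour Agilent whole rat genome arrays of MSC, COS1NR and MFH1NR were used, 1 per cell type. Per the file headers, the deposited intensity of each spot was made by the authors with Feature Extraction 10.5.1.1 (the submitters' processing notes name 9.1), which subtracts background within an array and does not scale between arrays. The deposited series table held the same intensities, with a largest difference of 0. The methods name an RNeasy kit and Quick Amp labelling, and the labels an mRNA isolation kit and a low-input kit. Control spots and outlier spots (187 to 217 per array) were left out, spots of a probe were averaged in log2, and 40816 of 41012 probes remained. Deposited intensities were divided by the 75th percentile of the array over spots that are not controls and turned into log2.

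Probes were named through RefSeq accessions and a GRCr8 gene table, which named 16745 of 17742 probes with a RefSeq mRNA accession. The array design refers to rn4, so no probe position is given. Each gene was read from the probe with the highest mean log2 intensity, provided that at least 1 of the arrays compared had it well above background. A bound sets the brighter array against whichever is greater on the other, the dim value itself or the weakest value called well above background there (17.9 in MSC, 29.4 in COS1NR, 30.1 in MFH1NR). Ratios at least 2-fold from 1 were counted, and no test was made. The number of arrays limits the precision. Members, lists and named genes (every member; listed ligands, receptors, Smads and antagonists above background; the 3 highest and 3 lowest of the other lists past 2-fold; the 3 profiles nearest to the widest-ranging member) were chosen with earlier results of these data known.

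Alternatives were no scaling, median, quantile and spike-in scaling (7 probes), the series table, normexp with an offset of 50, the second probe or mean of all probes, a common floor, a 3-fold threshold and stricter or no filters. Median and spike-in scaling of the lists and of genes with opposite directions were added after the data were seen. The counting was tested on simulated data with changes well past 2-fold in bright probes only. Calls near 2-fold and changes in dim probes were thus not covered. Tables were computed in Python 3.11.15 (pandas 2.3.3 and numpy 2.4.6), figures drawn with matplotlib 3.10.9, and normexp run by limma 3.58.1 in R 4.3.3. Promoter sequences are from RefSeq on GRCr8. Some list genes that enter the counts are not reported here by name.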

Additional observations from a re-analysis of the deposited data

Results flagged for a closer look

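Among the members and the 6 pathway lists, leaving out the cell type markers, 7 genes had a log2 ratio to MSC of opposite sign in COS1NR and MFH1NR, each beyond the median difference between probes. That is 9.72% of the 72 genes compared, beside 9.97% of all 9522 genes with both ratios. These differences between the lines were not tested, and both ratios share the MSC array. For Tgfbr1 the ratio was -0.44 in COS1NR and 0.46 in MFH1NR by its first probe, while its other probes put MFH1NR below MSC. For Inha it was at most -3.02 in COS1NR, where it is a bound, and 0.41 in MFH1NR. Bmpr1b had 1.22 in COS1NR and a bound of -1.26 in MFH1NR. Ltbp4 had a bound of -1.76 in COS1NR and 3.55 in MFH1NR. Smad6 had -1.50 and 1.25, and Bambi -2.45 and 0.85, in COS1NR and MFH1NR respectively. Chrdl1 had 1.76 in COS1NR and a bound of -0.41 in MFH1NR, which came to 0.00 without scaling. Under the other scalings each ratio of the first 6 genes kept its sign, including Tgfbr1 at -0.05 in COS1NR without scaling.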

How the results depend on the processing

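The members at least 2-fold higher in MFH1NR than in MSC, 1 as reported, numbered 3 without scaling, 2 under median scaling, 2 under quantile normalization, 2 under spike-in scaling, and 0 under normexp or at a 3-fold threshold. In MFH1NR against COS1NR, 3 members were higher and 3 lower as reported, against 5 and 1 under spike-in scaling, and 1 was lower at 3-fold. Counts of the gene lists under other scalings are mostly given with each list. Targets lower in MFH1NR than in COS1NR, 5 as reported, numbered 4 without scaling and 4 under spike-in scaling. Antagonists lower in COS1NR than in MSC, 4 as reported, numbered 5 under spike-in scaling. The other counts of members stayed within 1.5 times under all alternatives. The ratio of no member at least 2-fold apart changed sign. Of 241 recomputed member ratios 168 stayed within the median difference between probes and 73 moved further. Some could not move. The series table held the same intensities, and the mean of all probes repeated the probe of a gene with only 1. Without scaling 29 of 29 moved, under spike-in scaling 19 of 29 and under normexp 11 of 29, while under median scaling 29 of 29 stayed. The median ratio of all genes shifted by 0.39, 0.76 and 0.35 without scaling, by -0.26, 0.52 and 0.78 under spike-in scaling and by 0.16, 0.22 and 0.06 under median scaling, for COS1NR against MSC, MFH1NR against MSC and MFH1NR against COS1NR. Of all genes in COS1NR against MSC, 32.5% were then higher and 14.8% lower without scaling, and 14.6% and 25.0% under spike-in scaling (20.7% and 20.0% as reported). In MFH1NR against MSC these were 41.4% and 13.0% without scaling, and 33.6% and 15.0% under spike-in scaling (19.4% and 21.6% as reported). In MFH1NR against COS1NR they were 19.9% and 10.2% without scaling, and 34.9% and 7.11% under spike-in scaling (12.4% and 15.1% as reported). No paired analysis was possible because there was 1 array per cell type, and for the same reason no array could be left out. Near background, as for Grem1 in COS1NR, Eng in both lines and Tgfbr1, signal limits the size of a ratio.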
